A study of Oryza sativa Japonica Group with 30 samples.

Results

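Described here are 7 rice genes that write, erase or give access for DNA methylation, by their pooled read level in developing grain. They are the CG methyltransferase genes MET1a (LOC_Os03g58400, chromosome 3) and MET1b (LOC_Os07g08500, chromosome 7), the CHG methyltransferase gene CMT3a (LOC_Os10g01570, chromosome 10), the de novo methyltransferase gene DRM2 (LOC_Os03g02010, chromosome 3), the DNA demethylase gene ROS1a (LOC_Os01g11900, chromosome 1) and the chromatin remodeller genes DDM1a (LOC_Os09g27060, chromosome 9) and DDM1b (LOC_Os03g51230, chromosome 3). They were chosen by locus identifier, and all 7 were found among the 55801 gene identifiers of the deposited table.

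RNA came from whole rice caryopses, that is, grain together with its fruit coat, taken 7 days after pollination. The 30 samples formed 10 groups of 3. Lines overexpressing ONAC127 or ONAC129, which encode NAC transcription factors, lines mutant in either gene, and the wild type ZH11 were each grown under natural heat stress and under normal cultivation. Over nearly all of their growth, stressed plants met air hotter than 35 °C for some 6 h daily, with a maximum of about 40 °C. For plants under normal cultivation this happened on 3 days, and daytime air averaged some 30 °C. The promoter of the overexpression constructs, the number of lines per genotype and the number of plants per sample are not stated in the labels.

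The 8 tables, each named for 1 transgenic line against ZH11 under 1 condition, held the same single column, in which each gene has 1 mean of normalised read counts pooled over all libraries. Effects of genotype or heat on these genes are therefore not analysed here, no value has an SD, and no test between groups was made. A mean over 3 of the 30 libraries can be at most 10 times the pooled mean. For a value above 0, this bound is the only statement on a single group made here. The libraries differed in depth, with size factors from 0.551 to 1.64, so that 1 read added between 0.0203 and 0.0605 to a pooled mean. Each value above 0 has a 95% counting interval, printed for the genes the results turn on, which covers counting error only and was set wide enough to hold however the reads were split over the libraries. Reads of overlapping genes on the other strand cannot be told apart, since it is not stated whether the counting used strand.

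DNA methylation in plants is copied after replication at CG sites by MET1 enzymes and at CHG sites by chromomethylases such as CMT3, where H stands for any base but G. DRM2 adds methyl groups anew, guided by small RNAs, and DDM1 remodellers open nucleosome-bound DNA to the methyltransferases. DNA glycosylases of the ROS1 and DEMETER kind remove methylated cytosine. In rice grain, ROS1a is known for keeping the aleurone, the outer living layer of the endosperm, thin, and MET1b is known as the main CG methyltransferase.

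The demethylase gene ROS1a had the most reads of the 7 genes, and the 2 remodeller genes and MET1a had the fewest. ROS1a had a pooled mean of 668 normalised counts (95% counting interval 655 to 680.2), followed by MET1b with 466 (456 to 476) and DRM2 with 295 (287 to 304). CMT3a stood at 91.3 (86.8 to 96.0), DDM1b at 40.2 (37.2 to 43.3), MET1a at 38.4 (35.5 to 41.5) and DDM1a at 34.5 (31.7 to 37.4). The counting intervals of neighbours in this order did not overlap down to CMT3a and DDM1b. Those of DDM1b and MET1a overlapped, and so did those of MET1a and DDM1a, so these neighbours were not resolved even against counting error. The spread between samples, which would widen every interval, is not known. In whole caryopses, fewer cells of a type and less RNA per cell cannot be told apart.

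**Figure D1:**
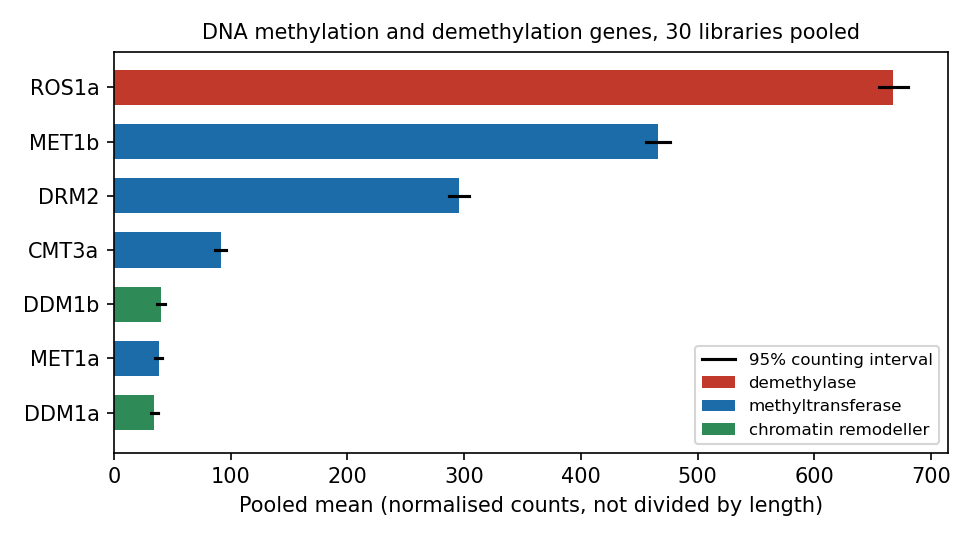
Pooled mean in normalised counts (x axis, linear, not divided by transcript length) of the 7 genes (y axis), with bars coloured by role and black lines for the 95% counting interval. ROS1a reaches 668 and MET1b 466, while DDM1b, MET1a and DDM1a lie between 34.5 and 40.2.

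These values are read counts, and a longer transcript gives more reads at the same number of molecules. Transcript lengths of the authors' annotation were not used here, so each ratio below compares reads. The ratio, or its inverse where it is below 1, is also the factor by which the transcript with more reads would have to be longer for the molecules to be equal in number.

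Both MET1 genes encode enzymes of the same kind, yet nearly all of their reads came from one. MET1b had 466 normalised counts and MET1a had 38.4, a ratio of 12.1 (95% counting interval 11.2 to 13.1), and MET1b held 92.4% of the sum of both. Had every MET1a read come from a single group of 3 libraries, MET1a would have averaged 384 there. The mean of MET1b in any single group is not known, so which gene led within a group was not tested. Equal numbers of MET1 transcripts in the pool would need a MET1b transcript 12.1 times as long as that of MET1a. The genes are related in sequence, and it is not stated how the counting treated reads that could fit both.

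The pair of DDM1 remodeller genes stood close together. DDM1a had 34.5 normalised counts and DDM1b had 40.2, a ratio of 0.858 (95% counting interval 0.767 to 0.960). This interval lies below 1 but covers counting error only, and the spread between samples is not known. A transcript of DDM1b longer by a factor of 1.17 would make the molecules equal. Together they had 74.6 normalised counts, which was 0.0837 times the sum of the 4 methyltransferase genes (0.0790 to 0.0887).

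Reads fell unevenly across the 4 methyltransferase genes. MET1b held 52.3% of the sum of the 4 genes, DRM2 held 33.2%, CMT3a held 10.2% and MET1a held 4.31%. MET1b (466) had 1.58 times the reads of DRM2 (295; 95% counting interval of the ratio 1.52 to 1.63). A MET1b transcript 1.58 times as long as that of DRM2 would make these molecules equal in number. CMT3a (91.3) had 0.309 times the reads of DRM2 (0.292 to 0.327), and MET1b had 5.10 times those of CMT3a (4.83 to 5.39).

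Each of the 4 methyltransferase genes had fewer reads than the demethylase gene ROS1a. MET1b had 466 normalised counts against 668 for ROS1a, a ratio of 0.698 (95% counting interval 0.678 to 0.718). DRM2 had 0.442 times the reads of ROS1a (0.428 to 0.458), CMT3a had 0.137 times (0.130 to 0.144) and MET1a had 0.0576 times (0.0531 to 0.0624). Summed, the 4 methyltransferase genes had 891 normalised counts, 1.33 times the value of ROS1a (1.30 to 1.37). Leaving out 1 gene in turn, the other 3 had 0.637 times the value of ROS1a without MET1b, 0.892 times without DRM2, 1.20 times without CMT3a and 1.28 times without MET1a, so the sum was below ROS1a when either MET1b or DRM2 was left out. The gap between MET1b and ROS1a is the smallest of the 4, and a ROS1a transcript longer by a factor of 1.43 would close it. For DRM2, CMT3a and MET1a the factors are 2.26, 7.31 and 17.4. The sums likewise compare reads, so the order by molecules was not tested.

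The wider families placed the 7 genes among their relatives. Of the 10 DNA methyltransferase genes listed, 9 were read, 7 reached 10 normalised counts and 3 reached 100, with a median of 64.9. Over all 55801 genes, 73.2% were above 0, 39.5% reached 10 and 21.4% reached 100, with a median of 1.23. Such lists hold named genes, whereas the table also holds many gene models with hardly a read, so these counts say nothing particular about the family.

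The chromomethylase and DRM families each had a leading gene among the 7. CMT3a held 74.2% of the reads of its family, with 3.24 times the value of CMT3b (28.2 normalised counts; 95% counting interval of the ratio 2.92 to 3.59) and 26.2 times that of CMT2 (3.49; 20.1 to 34.0). CMT2 is the chromomethylase known for CHH sites in long transposons, and its mean in any single group was at most 34.9 normalised counts. DRM2 held 66.1% of the DRM reads, with 1.96 times the value of DRM3 (151; 1.86 to 2.05), whose namesake in Arabidopsis is a partner of DRM2 that lacks its own activity. The DRM1 genes, which lie in the part that chromosomes 11 and 12 share as near copies, were hardly read. DRM1a had 0.478 normalised counts, which is 8 to 23 reads over all libraries, and DRM1b was listed at 0. No read was counted for DRM1b in any library. For a gene listed at 0 the limit given is that of 3 reads in the library of least depth, a pooled mean of 0.181, in place of the interval used for the other genes. Reads that fit both copies may have been lost in counting, which was not tested. DNMT2, named as a DNA methyltransferase but known for methylating transfer RNA, had 99.99 normalised counts.

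Of the demethylase genes, ROS1a held 75.4% of the reads. All 6 listed were read, 5 reached 10 normalised counts and 2 reached 100, with a median of 51.5. Over all genes, 73.2% were above 0, 39.5% reached 10 and 21.4% reached 100. As for the methyltransferases, such counts say nothing particular about the family. ROS1a had 6.56 times the value of the next, DML3a (102; 95% counting interval of the ratio 6.23 to 6.90), and 9.61 times that of ROS1b (69.5; 9.05 to 10.2). ROS1d had 33.5 normalised counts, and ROS1c, known in rice for holding back the retrotransposon Tos17, had 13.2. ROS1a stood 19.9 times above ROS1d (18.3 to 21.7) and 50.7 times above ROS1c (44.3 to 58.0). DML3b had 0.224 normalised counts, which could be written as whole reads in exactly 1 way: 10 reads in 6 of the 30 libraries, at most 3 in any of them. Summed over the lists, the 10 methyltransferase genes had 1174 normalised counts and the 6 demethylase genes had 886, a ratio of 1.33 (1.30 to 1.35). The 1174 includes DNMT2 (99.99), known for methylating transfer RNA, and DRM3 (151), whose namesake in Arabidopsis lacks its own activity. Without these genes the ratio would be lower, by an amount that was not computed.

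**Figure D2:**
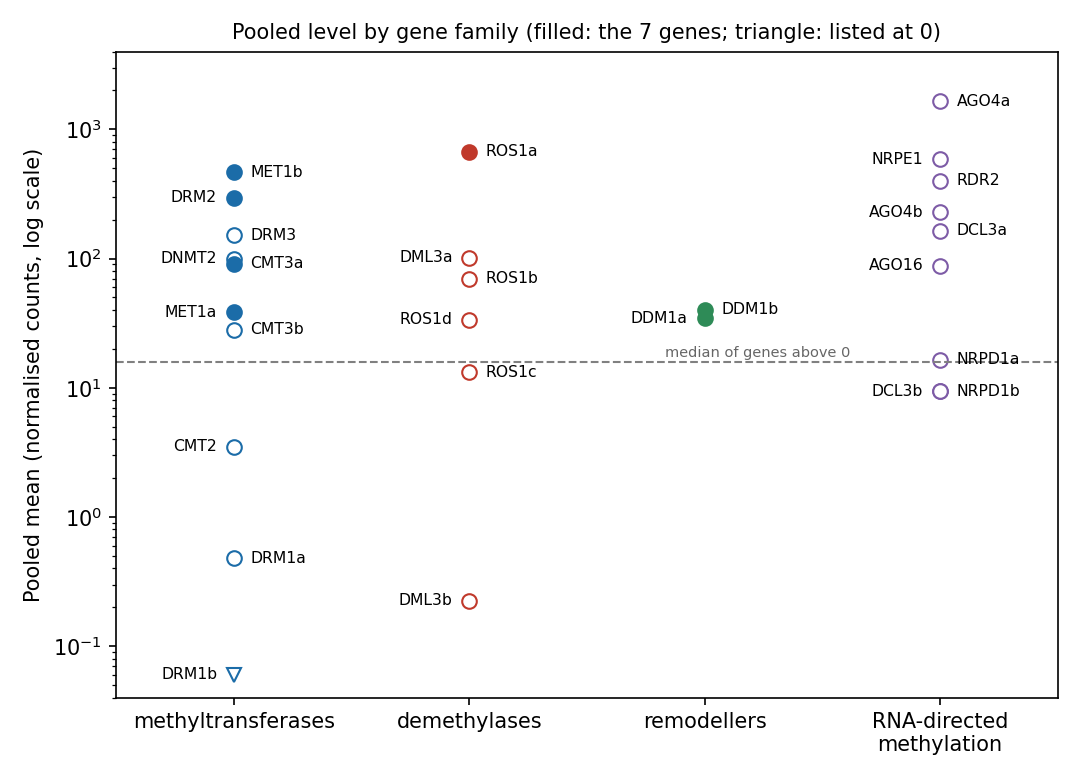
Pooled mean in normalised counts (y axis, log scale) of the methyltransferase, demethylase, remodeller and RNA-directed methylation lists (x axis), with the 7 genes filled, their relatives open, and the dashed line at the median of 15.9 over all genes above 0. ROS1a and MET1b lead their families at 668 and 466, DRM1b (triangle, drawn at the foot of the axis) is listed at 0, and AGO4a has the highest value of these 4 lists at 1654.

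All of the 9 genes listed for the small RNA route that guides DRM2 were read, and 5 reached 100 normalised counts, with a median of 164. Over all genes, 73.2% were above 0 and 21.4% reached 100, and here too the counts say nothing particular about the list. AGO4a, an Argonaute that carries the guide RNAs to chromatin, had 1654 normalised counts (95% counting interval 1634 to 1674), which was 5.60 times the value of DRM2 (5.43 to 5.77) and 52.5% of the sum of the list. Its relatives AGO4b and AGO16 had 228 and 87.7. NRPE1, the largest subunit of the polymerase that makes the scaffold RNA, had 586, and RDR2, which makes the guide precursors double-stranded, had 398. DCL3a, which dices them, had 164. The related gene DCL3b had 9.44, and whether it serves this route was not tested.

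Both genes for the largest subunit of the polymerase that starts the small RNA route were near the foot of that list. NRPD1a had 16.5 normalised counts (14.6 to 18.5) and NRPD1b had 9.37 (7.95 to 11.0), and NRPE1 had 35.6 times the value of NRPD1a (31.6 to 40.2). These subunit genes were paired with their loci from general knowledge alone.

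In the whole profile the 7 genes spread from the middle to the upper end of the genes read. ROS1a was higher than 92.2% of the 40831 genes above 0, MET1b than 89.2%, DRM2 than 84.5% and CMT3a than 69.6%. DDM1b, MET1a and DDM1a were higher than 59.5%, 59.0% and 57.8%. All 7 lay above the median of 15.9 over genes above 0, and none reached 1000, as 5.17% of the genes above 0 did. The 7 values rest on many reads: between 11041 and 32930 for ROS1a, and between 570 and 1699 for DDM1a, depending on the depth of the libraries they came from.

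**Figure D3:**
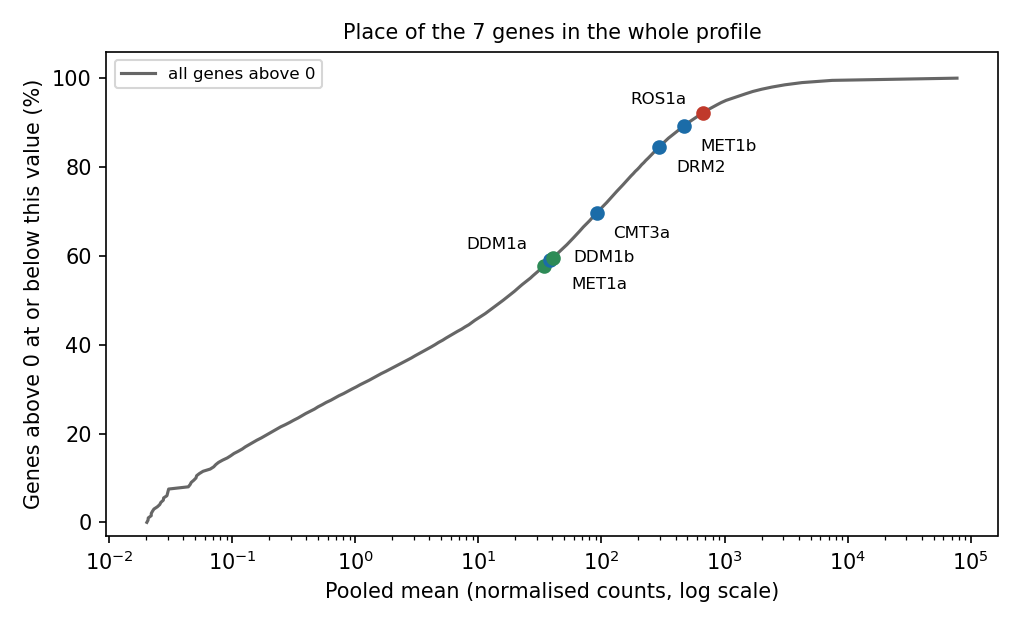
Cumulative share of the 40831 genes above 0 (y axis, percent) by pooled mean in normalised counts (x axis, log scale), with the 7 genes as points coloured by role (red demethylase, blue methyltransferases, green remodellers). DDM1a, MET1a and DDM1b fall between 57.8% and 59.5% of genes, and ROS1a at 92.2%.

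The genes that ROS1a is known to affect in the aleurone had more reads than ROS1a. Loss of ROS1a function in rice is known to raise methylation at the promoters of RPBF and RISBZ1, which encode activators of storage protein genes. RPBF had 20001 normalised counts and RISBZ1 had 2229, against 668 for ROS1a, ratios of 30.0 (29.4 to 30.5) and 3.34 (3.27 to 3.41). Methylation itself was not measured, and levels in a pool say nothing on whether these genes move together. Reads came from whole caryopses, so the levels within the aleurone are not known.

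Markers of the tissues in the sample were abundant: the endosperm genes GluA1 (a glutelin) and GBSSI (amylose synthesis) had 61910 and 39906 normalised counts, the oil body genes Ole16 and Ole18 of embryo and aleurone had 24670 and 21160, and LHCB1 of the green fruit coat had 10679. Which of these tissues the reads of the 7 genes came from was not tested. PCNA, the replication clamp, had 569.9 normalised counts, and MET1b, whose enzyme works behind the replication fork, had 0.817 times that value (0.793 to 0.842). This ratio compares reads, not molecules, and whether MET1b and PCNA move together was not tested.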

How the data were processed

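CASAVA 1.7, HISAT2 2.0.5 and DESeq2 are the tools named in the submitters' processing notes. Not given in the sources used here are the read counter, the genome build and the annotation. Per the file headers, the deposited unit is the baseMean, treated here as a signal: the mean over libraries of counts divided by size factors. The 8 files were identical, and no column held a single sample.

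What 1 read adds to a pooled mean in each of the 30 libraries was found from values up to 0.1, as those that are no sum of smaller steps within 1e-11. Counting intervals (gamma method for levels, log scale for ratios) used the worth of 1 read in the shallowest library as an upper bound on the variance. Python 3.11.15, numpy 2.4.6, scipy 1.17.1, pandas 2.3.3 and matplotlib 3.10.9 were used.

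The 7 genes and the 28 related loci were chosen, and all of them named, with earlier results of these data known. SDG728, one of the 28, was not analysed here, as its locus was not among the 55801 gene identifiers. Symbols come from general knowledge. As a check, they were sought in the RefSeq table for assembly ASM3414082v1 (39387 genes, 0 with a LOC_Os identifier), and chromosome and relative place (within 0.1) were compared. MET1a, MET1b, CMT3a and DRM2 matched, as did CMT3b (there CMT1), DRM3, ROS1c, RDR2, AGO4a, AGO4b, SAMS1 and SAMS2, and the markers GluA1, GBSSI, Ole18 and PCNA. ROS1a, DDM1a, DDM1b and all other loci had no symbol there. No locus was contradicted. The planned scaling by coding length was not run, because no protein lengths were given.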

Additional observations from a re-analysis of the deposited data

How the results depend on the processing

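Ranked among all genes in the table, ROS1a was higher than 94.3%, MET1b than 92.1%, DRM2 than 88.7%, CMT3a than 77.7%, DDM1b than 70.4%, MET1a than 70.0% and DDM1a than 69.1%. Among genes with at least 10 normalised counts these values were 85.6%, 80.0%, 71.3%, 43.7%, 25.0%, 24.1% and 21.9%, so CMT3a, DDM1b, MET1a and DDM1a lay above or below the middle depending on the genes they were ranked with. The sum of the 4 methyltransferase genes over ROS1a was 1.33. Over both whole lists the ratio was 1.33 as well, but only with DNMT2 (99.99) and DRM3 (151) counted among the methyltransferases. Without them it would be lower, by an amount that was not computed. For the 4 genes it was 0.637 without MET1b, 0.892 without DRM2, 1.20 without CMT3a and 1.28 without MET1a. These settings for the sum were chosen after seeing the data. With only loci matched in the reference, the demethylase list kept 1 of 6 genes read, the remodellers 0 of 2, the RNA-directed list 3 of 9 and the methyl donor list 2 of 4. The methyltransferases kept 6 of 9. Requiring at least 10 normalised counts left 7 methyltransferases, 5 demethylases, 2 remodellers and 7 genes of the RNA-directed list. Scaling by coding length or gene span was not run: coding lengths were not given, and the reference table is not known to be of the authors' build. Leaving out replicates was not possible, since no value belongs to 1 sample. No paired analysis was possible because no value carries a replicate number. In a mean over all 30 libraries, a difference in a single group is diluted, whatever the depth.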

Other observations

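DNA methyltransferases take their methyl group from S-adenosylmethionine, and genes of its supply were among the most read of all. SAHH, which clears the product that inhibits methyltransferases, had 17826 normalised counts and ranked 56 of all genes. The S-adenosylmethionine synthetase genes SAMS1 and SAMS2 had 10017 and 9469 and ranked 140 and 156. SAMS3 had 2.68, with its locus taken from general knowledge alone. These enzymes serve every methylation reaction of the cell, not only that of DNA.

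SDG714, a histone methyltransferase of the kind whose mark chromomethylases read, had 48.7 normalised counts (95% counting interval 45.4 to 52.2). This lay between MET1a (38.4) and CMT3a (91.3).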
